A study of Sus scrofa with 30 samples.

Results

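Milk is made by moving water, sodium, chloride, potassium and phosphate across the secretory epithelium of the mammary gland, and 8 genes of that traffic were followed through the lactation cycle of the sow. They were the water channel genes AQP1, AQP3 and AQP5, the sodium, potassium and chloride cotransporter gene SLC12A2, the epithelial sodium channel gene SCNN1A, the sodium pump subunit gene ATP1B1, the chloride channel gene CFTR and the phosphate cotransporter gene SLC34A2. They were chosen by name, and every reference transcript of these genes in the deposited table was taken and summed per gene. Of the 8 genes, 7 were measured, through 10 transcripts, out of 14951 genes with a reference transcript and 26012 genes and assembled loci in all. CFTR was not analysed here.

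The tissue was mammary gland from crossbred Danish Landrace and Yorkshire sows, all half-siblings that had farrowed more than once. By the authors' account a different sow stood behind each of the 30 libraries. The stages were mid-gestation at day 70 (MG), late gestation at day 110 (LG), early lactation at day 2 postpartum (EL), peak lactation at day 10 postpartum (PL) and early involution at day 2 after weaning (W2). By the same account each stage had 6 sows. No sow was treated and no stage carried an allele or agent of its own. The stage field of the sample records gives mid-gestation for the samples titled EL and early lactation for those titled MG; the titles were followed, and if the field were right the names MG and EL would change places in every sentence. The samples were pieces of whole gland, so that fewer cells of a type and less RNA per cell cannot be told apart.

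A secretory cell holds the sodium pump, which needs a beta subunit such as the ATP1B1 product to reach the membrane, on its basolateral side. The gradient that the pump keeps up drives SLC12A2, also called NKCC1, which loads chloride into the cell from the blood side, while CFTR lets chloride out and the epithelial sodium channel, whose alpha subunit is SCNN1A, lets sodium in from the luminal side. Water follows the solutes, and lactose above all, through aquaporins: AQP1 is best known in capillary endothelium and red cells, AQP3 in basolateral membranes of epithelia, where it also passes glycerol, and AQP5 in apical membranes of secretory glands. SLC34A2, also called NaPi-IIb, brings phosphate across apical membranes with sodium and is known from lung, intestine and lactating mammary epithelium.

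In every stage, 3 of the 6 samples were near-identical to each other, with median differences of at most 1.85% between pairs over transcripts of at least 10 units, against 19.4% to 59.3% between the other 3. Their mean equalled the mean of those other 3 to within 0.741%, so they were not counted as replicates and n = 3 throughout. Values of single samples are given in the order MG 1, 3 and 6, LG 1, 3 and 4, EL 3, 4 and 6, PL 2, 3 and 6, and W2 2, 3 and 6. Values are on the TPM scale, scaled to transcript length and to a common total, and are called units; the table gives no reads per transcript. The totals of the counted samples lay between 997480 and 998888. The 20 highest transcripts took 23.8% to 28.8% of the total in the samples titled MG, 31.5% to 37.8% in those titled EL, 23.0% to 26.5% in W2 and 40.2% to 49.7% in PL, and PL sample 2, with the 49.7%, stood apart from the rest, with 34065 transcripts above 0 against 39524 to 46114 in the other counted samples. The median of all genes lay 0.57 lower on the log2 scale in PL than in MG and 0.68 higher in W2 than in PL.

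SLC34A2 had the highest level of the 7 genes and was called in 3 comparisons. It was 1.73-fold higher in PL than in MG and fell by 0.84 on the log2 scale from PL to W2, while the median of all genes moved the other way both times. AQP3 was lower in PL than in MG, LG and EL and higher again in W2, and SLC12A2 was higher in W2 than in PL, but these changes were close to the shift of all genes or lost their call when that shift was removed. AQP1, AQP5, SCNN1A and ATP1B1 passed the test in no comparison. Over the 70 pairs of gene and stage comparison, 8 were called at an adjusted p below 0.05 (limma, Benjamini-Hochberg over all 26012 genes and loci), 3 higher and 5 lower in the later stage. The background over the same 10 comparisons was 7.81%. The samples of the stages did not overlap in 19 of the 70 pairs, against a background of 26.9%. None of the 70 also reached the absolute log2 fold change of 2 that the study asked for (background 1.33%). An unadjusted p below 0.05 in limma was found in 16 of the 70. Among all 26012 genes and loci, the number with such a p ran from 804 in W2 vs MG to 11443 in W2 vs PL. No member was called in LG vs MG (background 0.0115%), EL vs LG (0.0154%), EL vs MG (0.0269%), W2 vs LG (0.0346%) or W2 vs MG (0.0115%), where 2, 1, 2, 1 and 0 members had an unadjusted p below 0.05. In the same order, 1153, 1609, 4138, 1969 and 804 of all 26012 genes and loci had one. Without PL sample 2 the number of calls was 10, with a background of 8.61%.

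**Figure D1:**
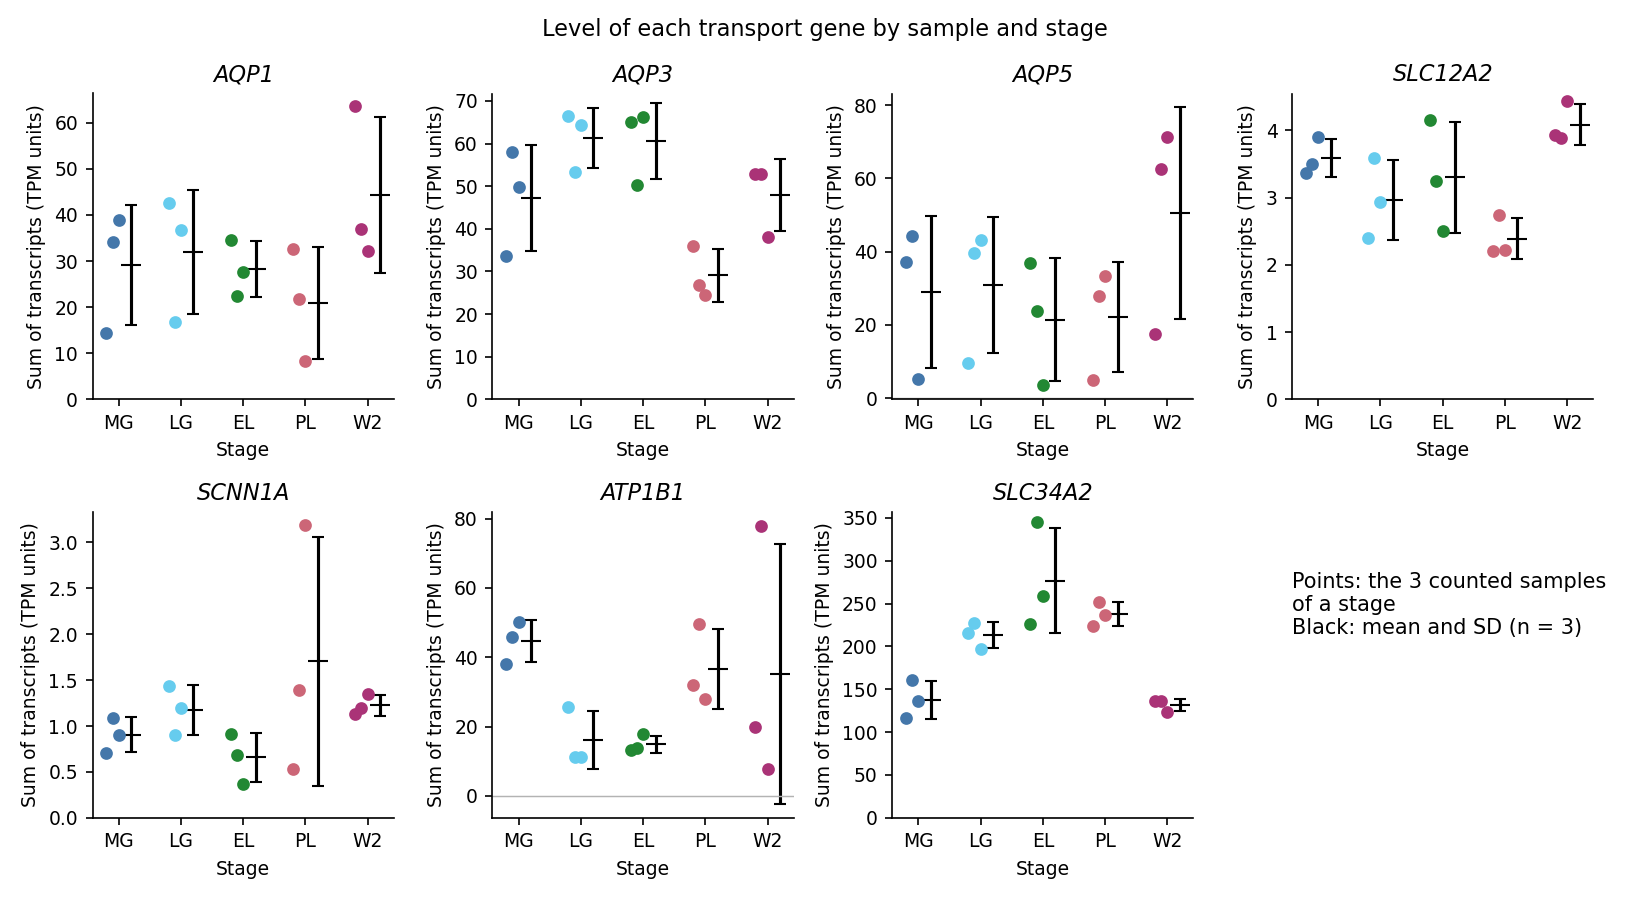
Level of each of the 7 genes, as the sum of its reference transcripts in TPM units on a linear axis, in the 3 counted samples of each stage (points), with the mean and SD in black (n = 3). SLC34A2 was at 116 to 160 units in MG and W2 and at 198 to 345 units in LG, EL and PL. AQP5 spread widely within every stage. ATP1B1 did so in LG and W2 (SD 51.9% and 107% of the mean) but less in MG, EL and PL (13.5%, 16.5% and 31.4%).

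Among the water channels, AQP3 lies on chromosome 10 of Sscrofa11.1 (33045374 to 33050285) and was measured through its single transcript NM_001110172.1. It was at 33.6, 58.0 and 49.8 units in the MG samples, 66.4, 53.4 and 64.3 in those of LG, 65.0, 50.3 and 66.3 in those of EL, 36.0, 26.7 and 24.5 in those of PL and 52.9, 52.8 and 38.2 in those of W2. All 3 PL samples lay below every LG, EL and W2 sample, and overlapped MG only through MG sample 1. The stage means ran from 61.4 ± 6.99 (SD) in LG and 60.5 ± 8.91 in EL through 48.0 ± 8.49 in W2 and 47.2 ± 12.4 in MG down to 29.1 ± 6.12 in PL. LG and EL differed by less than the spread, as did W2 and MG, and EL and W2 overlapped (adjusted p = 0.361).

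AQP3 was called lower in PL than in LG by 1.08 on the log2 scale (log2 fold change −1.08, SE 0.229, adjusted p = 0.00947), where 14.7% of all genes and loci were called. It was also called lower in PL than in EL (−1.05, adjusted p = 0.0224, background 4.62%) and in PL than in MG (−0.67, adjusted p = 0.0486, background 25.2%). From PL to W2 it was called higher, by 0.72 (adjusted p = 0.0310, background 32.8%). The medians of all genes were −0.45, −0.22, −0.57 and 0.68 in these 4 comparisons, so that the W2 vs PL and PL vs MG changes differed from the median by only 0.04 and −0.10. After median ratio scaling, which sets the samples level over transcripts of at least 10 units in every sample, AQP3 was at −0.58 in PL vs LG (adjusted p = 0.228), at −0.71 in PL vs EL (adjusted p = 0.177), at −0.01 in PL vs MG and at −0.01 in W2 vs PL, with a call in none of these and the sign turned in the last. Without PL sample 2 all 4 calls held, with adjusted p from 0.00562 to 0.0278. The W2 vs PL call was lost without PL sample 3 or 6 or W2 sample 2 or 3, the PL vs EL call without EL sample 3 or 6 or PL sample 6, and the PL vs MG call without any counted sample other than MG 1, EL 4, PL 2 and W2 6 (adjusted p from 0.0569 to 0.180).

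AQP1 lies on chromosome 18 (42063482 to 42076741) and its 3 transcripts added up to 14.3, 34.2 and 38.9 units in the MG samples, 42.6, 16.8 and 36.6 in those of LG, 34.6, 22.5 and 27.6 in those of EL, 32.6, 21.8 and 8.42 in those of PL and 63.6, 37.0 and 32.2 in those of W2. W2 sample 2 was the highest of all, but W2 samples 3 and 6 lay within the range of the MG and of the LG samples. W2 sample 6 also lay just under PL sample 2, and every stage overlapped every other. In order of the means, W2 (44.3 ± 16.9) came before LG (32.0 ± 13.5), MG (29.1 ± 13.0), EL (28.2 ± 6.09) and PL (20.9 ± 12.1), and no neighbours in that order differed by more than their SD. The comparison nearest to a call was W2 vs PL, with a log2 fold change of 1.19 (SE 0.518, adjusted p = 0.0953), against 0.68 for the median of all genes. Without PL sample 2 it was 1.60 and was called (adjusted p = 0.0496), and without PL sample 6 it was 0.66 (adjusted p = 0.324). Of 9 endothelial marker genes listed, 8 were measured and added up to 90.7 to 145 units in PL and 145 to 181 in W2. Of 8 red cell markers, 5 were measured, with 72.5 to 123 units in PL and 53.4 to 242 in W2. No measured marker was at 0 in all samples, and their part in the AQP1 levels was not tested.

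The transcripts of AQP1 did not keep a fixed proportion. XM_021078524.1 made up 97.8% of the gene in MG, 72.7% in LG and 91.5% in EL, then 81.8% in PL and 96.5% in W2. NM_214454.1 was at 3.28 to 6.51 units in LG sample 4, EL samples 3 and 6 and PL samples 2 and 6, and at 0.227 units or less in the other 10 counted samples. In PL sample 6 it held 77.3% of the gene, XM_021078524.1 being at 1.85 units there. The non-coding transcript XR_002340208.1 reached 21.3 units in LG sample 1, 50.1% of the gene, and 2.31 units at most elsewhere. No AQP1 transcript was called in W2 vs PL: XM_021078524.1 was at 1.85 (SE 0.744, adjusted p = 0.160; 0.71 without PL sample 6), NM_214454.1 at −2.11 (adjusted p = 0.265) and XR_002340208.1 at 1.71 (adjusted p = 0.392).

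**Figure D2:**
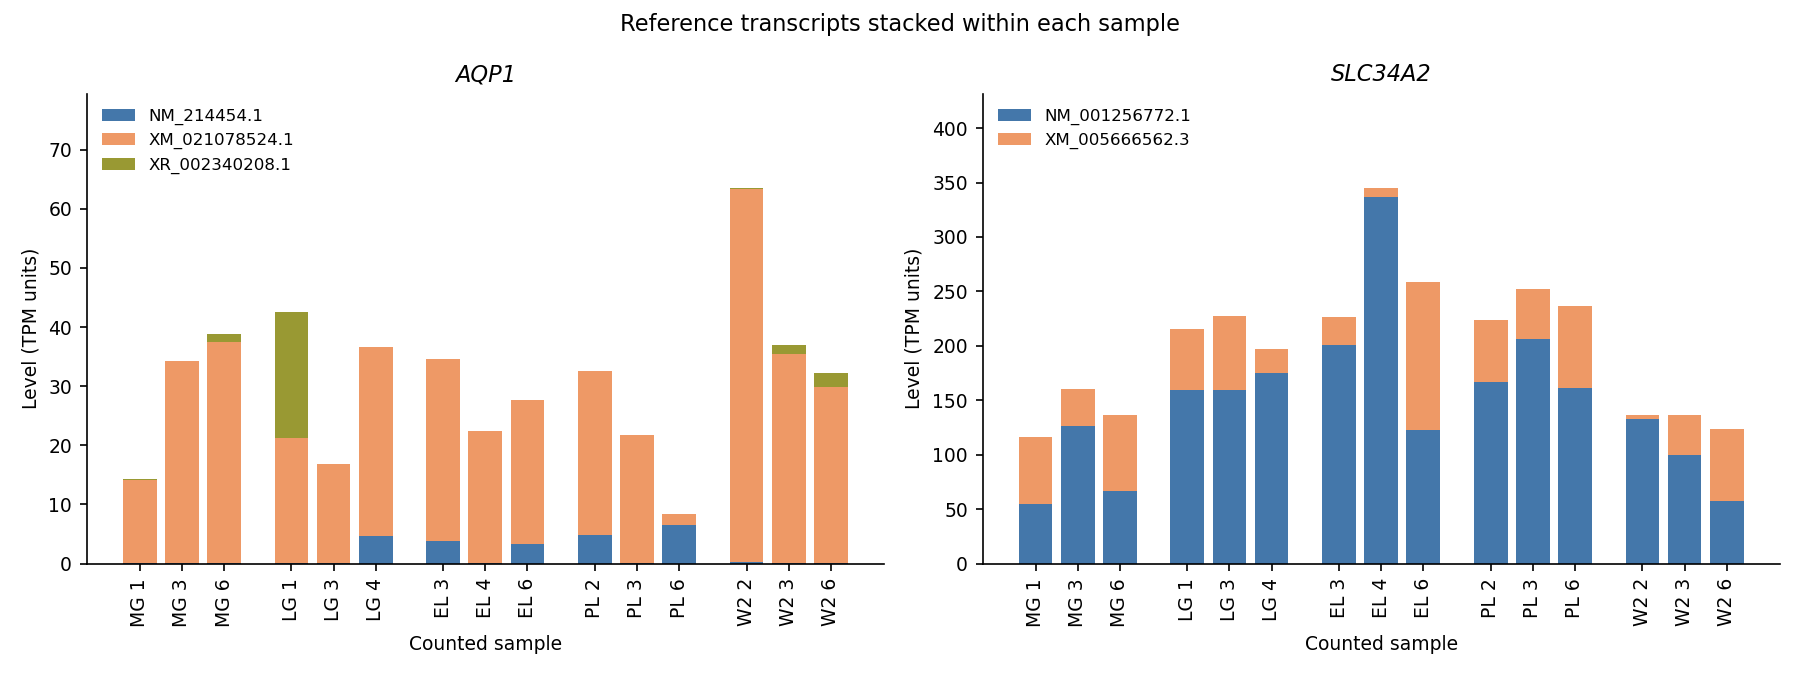
Reference transcripts of AQP1 (left) and SLC34A2 (right) stacked in TPM units within each of the 15 counted samples, named by stage and number. In W2 the SLC34A2 total was 124 to 136 units while NM_001256772.1 held 46.6% to 97.7% of it, and in AQP1 LG sample 1 and PL sample 6 differed from the rest in which transcript was counted.

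AQP5 lies on chromosome 5 (15876527 to 15879608) and was measured through NM_001110424.1. It was at 37.1, 44.3 and 5.28 units in the MG samples, 9.65, 39.7 and 43.3 in those of LG, 36.8, 23.8 and 3.47 in those of EL, 5.00, 27.9 and 33.4 in those of PL and 17.5, 62.6 and 71.3 in those of W2. In each stage 1 sample was far below the other two, so that the range over the 15 samples was 20.5-fold and the SD was 57.3% to 78.6% of the stage mean. W2 had the highest mean (50.5 ± 28.9), followed by LG (30.9 ± 18.5), MG (28.9 ± 20.8), PL (22.1 ± 15.1) and EL (21.4 ± 16.8), and no neighbours differed beyond their spread. Its lowest adjusted p was in W2 vs PL, with a log2 fold change of 1.31 (SE 1.060, adjusted p = 0.362), and without PL sample 2 the fold change was 0.48 (adjusted p = 0.804). The near-identical MG samples, by contrast, lay between 28.5 and 29.3 units, at the mean of the counted ones.

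The sodium pump subunit gene ATP1B1 lies on chromosome 4 (81912543 to 81937015) and was measured through NM_001001542.1. It was at 38.2, 45.8 and 50.1 units in the MG samples, 25.7, 11.2 and 11.3 in those of LG, 13.4, 13.7 and 17.8 in those of EL, 32.0, 49.6 and 28.0 in those of PL and 20.0, 77.9 and 7.64 in those of W2. All MG and PL samples lay above all LG and EL samples, while the W2 samples covered the whole range. MG (44.7 ± 6.05), PL (36.5 ± 11.5) and W2 (35.2 ± 37.5) did not differ beyond their spread, nor did LG (16.1 ± 8.34) and EL (14.9 ± 2.47). The log2 fold change was −1.55 in both LG vs MG and EL vs MG (SE 0.616, adjusted p = 1.00 and 0.278), with no overlap in either. It was 1.23 in PL vs LG (adjusted p = 0.195) and 1.23 in PL vs EL (adjusted p = 0.309). Because the spread was estimated over all 5 stages, the W2 samples also set the error of comparisons without W2. With the compared stages fitted alone, ATP1B1 was still uncalled in LG vs MG (adjusted p = 0.478) and EL vs MG (adjusted p = 0.104). The same held for PL vs LG (adjusted p = 0.173) and PL vs EL (adjusted p = 0.190).

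ATP1B3, another beta subunit of the pump looked up for its role, was at 50.3 ± 3.11 units in MG, 39.2 ± 5.28 in LG and 41.1 ± 1.15 in EL, followed by 52.4 ± 13.4 in PL and 46.4 ± 12.0 in W2. Its mean was above that of ATP1B1 in all stages, and both beta genes had their 2 lowest means in LG and EL. ATP1B3 was not called in PL vs MG (0.03, adjusted p = 0.965) or W2 vs PL (−0.17, adjusted p = 0.579). After median ratio scaling it was called in both (0.69, adjusted p = 0.0160, and −0.90, adjusted p = 0.00352).

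SCNN1A, on chromosome 5 (64287529 to 64312917), encodes the alpha subunit of the epithelial sodium channel and was measured through NM_213758.2; its other reference transcript was not analysed here. It was the lowest of the 7 genes, at 0.711, 1.09 and 0.906 units in the MG samples, 1.44, 0.898 and 1.19 in those of LG, 0.911, 0.688 and 0.373 in those of EL, 0.536, 1.39 and 3.19 in those of PL and 1.13, 1.20 and 1.35 in those of W2. PL sample 6 was above every other counted sample, and PL sample 2 was lower than every sample but EL sample 6. The means were 1.70 ± 1.35 in PL, 1.22 ± 0.112 in W2, 1.18 ± 0.270 in LG, 0.903 ± 0.191 in MG and 0.657 ± 0.270 in EL, and all neighbours in this order overlapped. Its lowest adjusted p was in PL vs EL, with a log2 fold change of 0.77 (SE 0.391, adjusted p = 0.319), and without PL sample 2 it was 1.22 and called (adjusted p = 0.0425), while without PL sample 6 it was 0.30 (adjusted p = 0.648). PL vs MG was at 0.47 (adjusted p = 0.403) and, with quantile normalization, at 1.04 and called (adjusted p = 0.0425). The partner subunit genes SCNN1B and SCNN1G, looked up for their role, had stage means of 5.63 to 8.77 and of 5.36 to 7.43 units, both above SCNN1A in every stage.

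SLC12A2, on chromosome 2 (131016430 to 131109307), was measured through XM_003123899.5; its other reference transcript was not analysed here. It was at 3.37, 3.50 and 3.91 units in the MG samples, 2.39, 3.58 and 2.93 in those of LG, 4.16, 3.24 and 2.50 in those of EL, 2.21, 2.74 and 2.22 in those of PL and 3.94, 3.88 and 4.43 in those of W2. Every W2 sample lay above every PL sample, and the means ran from 4.08 ± 0.303 in W2 through 3.59 ± 0.280 in MG, 3.30 ± 0.832 in EL and 2.97 ± 0.596 in LG to 2.39 ± 0.304 in PL. Neighbours in that order overlapped. W2 vs PL was its single call, at a log2 fold change of 0.67 (SE 0.225, adjusted p = 0.0376), which differed from the median of all genes by −0.01. The change was 0.04 after median ratio scaling (adjusted p = 0.949), and it was not called without PL sample 2 (0.63, adjusted p = 0.0674), nor without PL sample 6 or any of the 3 W2 samples in turn.

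SLC34A2, on chromosome 8 (19481127 to 19507903), was at 116, 160 and 137 units in the MG samples, 215, 228 and 198 in those of LG, 226, 345 and 259 in those of EL, 224, 252 and 237 in those of PL and 136, 136 and 124 in those of W2. Every LG, EL and PL sample lay above every MG and W2 sample. The means were 277 ± 61.5 in EL, 238 ± 14.0 in PL, 213 ± 15.1 in LG, 138 ± 22.0 in MG and 132 ± 7.09 in W2. EL and PL overlapped, as did PL and LG and as did MG and W2, so that LG to MG was the single step in this order without overlap.

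From MG to PL, SLC34A2 was called higher with a log2 fold change of 0.79 (SE 0.161, adjusted p = 0.00469), where 2.23% of all genes and loci were called higher and 23% lower. From PL to W2 it was called lower, at −0.84 (adjusted p = 0.00250), where 2.48% were called lower and 30.4% higher. It was also called lower in W2 than in EL, at −1.04 (adjusted p = 0.0213, background 0.554% in either direction). Less the median of all genes these values were 1.36, −1.52 and −1.49. After median ratio scaling they were 1.46 (adjusted p = 0.00105), −1.58 (adjusted p = 0.000585) and −1.43 (adjusted p = 0.0179), all still called. Without PL sample 2 they were 0.83, −0.89 and −1.04, all called. The W2 vs EL call was lost without EL sample 4 or 6 or any of the 3 W2 samples, with adjusted p from 0.0565 to 0.0772. It was also lost with the sample number fitted as a block (adjusted p = 0.0938) and with the compared stages fitted alone (adjusted p = 0.0720). LG vs MG (0.64, adjusted p = 0.835), EL vs MG (0.99, adjusted p = 0.0790) and W2 vs LG (−0.69, adjusted p = 0.506) had no overlap but were not called. EL vs MG was called with quantile normalization (1.25, adjusted p = 0.0472) and with the 20 highest transcripts removed (1.19, adjusted p = 0.0368). After median ratio scaling it was not (1.32, adjusted p = 0.0548).

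In MG, EL, PL and W2 each of the SLC34A2 transcripts varied over a wider range than their sum, relative to the mean. In LG only XM_005666562.3 did. NM_001256772.1 ranged from 47.3% to 78.6% of the gene in the MG samples, from 47.4% to 97.5% in EL and from 46.6% to 97.7% in W2. In PL it ranged from 68.0% to 81.7%. XM_005666562.3 was at 3.10, 36.3 and 66.1 units in the W2 samples, whose sums were 124 to 136 units. On their own, both were uncalled in W2 vs PL: NM_001256772.1 was at −0.94 (SE 0.390, adjusted p = 0.170) and XM_005666562.3 at −1.52 (SE 1.027, adjusted p = 0.402). With NM_001256772.1 in place of the sum in the fit across genes, W2 vs PL (adjusted p = 0.104), PL vs MG (1.19, adjusted p = 0.0591) and W2 vs EL (−1.14, adjusted p = 0.179) were no longer called. Over all 100 pairs of transcript and comparison 1 was called, NM_001110172.1 of AQP3 in PL vs LG (−1.08, adjusted p = 0.0418, background over all comparisons 1.46%), and that call was lost without MG sample 6, EL sample 6, PL sample 3 or 6 or any LG sample (adjusted p of 0.0512 or more).

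The luminal epithelial markers, 7 of 8 listed, added up to 1428 to 1998 units in MG, 1529 to 1713 in LG and 1445 to 1580 in EL, and to 910 to 2054 in PL and 1594 to 2170 in W2. Those ranges overlapped between all stages except EL and W2, and their part in the SLC34A2 and AQP3 levels was not tested. Macrophage and leukocyte markers, 7 of 8 listed, were at 40.0 to 324 units in PL and 78.8 to 82.5 in W2. Of these, 4 were called higher and 1 lower in W2 than in PL, against 1 and 1 after median ratio scaling. Their part was not tested either. Fibroblast markers, 6 of 6 listed, added up to 1541 to 2336 units in MG, 472 to 1087 in PL and 1401 to 2632 in W2, with no overlap between PL and either of the others. Of the 6, 5 were called lower in PL than in MG (median −1.25), where 23% of all genes and loci were called lower. In W2 vs PL 5 were called higher (median 1.37), where 30.4% of all were. After median ratio scaling 2 were called lower in PL than in MG and 2 higher in W2 than in PL, against 5.87% and 7.67% of all. Adipocyte markers, 6 of 8 listed, were at 313 to 877 units in PL and 589 to 918 in W2, where 2 were called higher and 1 lower. Myoepithelial markers, 7 of 9 listed, were at 910 to 2228 and 1553 to 1817 units, with no call in W2 vs PL. In that comparison 1 luminal and 3 endothelial markers were called higher, and no red cell marker was called. Of all genes and loci 30.4% were called higher and 2.48% lower. After median ratio scaling 1 luminal, 3 myoepithelial, 1 endothelial and 1 adipocyte marker were called lower and none higher, against 5.56% and 7.67% of all. None of these markers was at 0 in all samples, and their part in the AQP3, SLC12A2 and SLC34A2 changes was not tested.

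**Figure D3:**
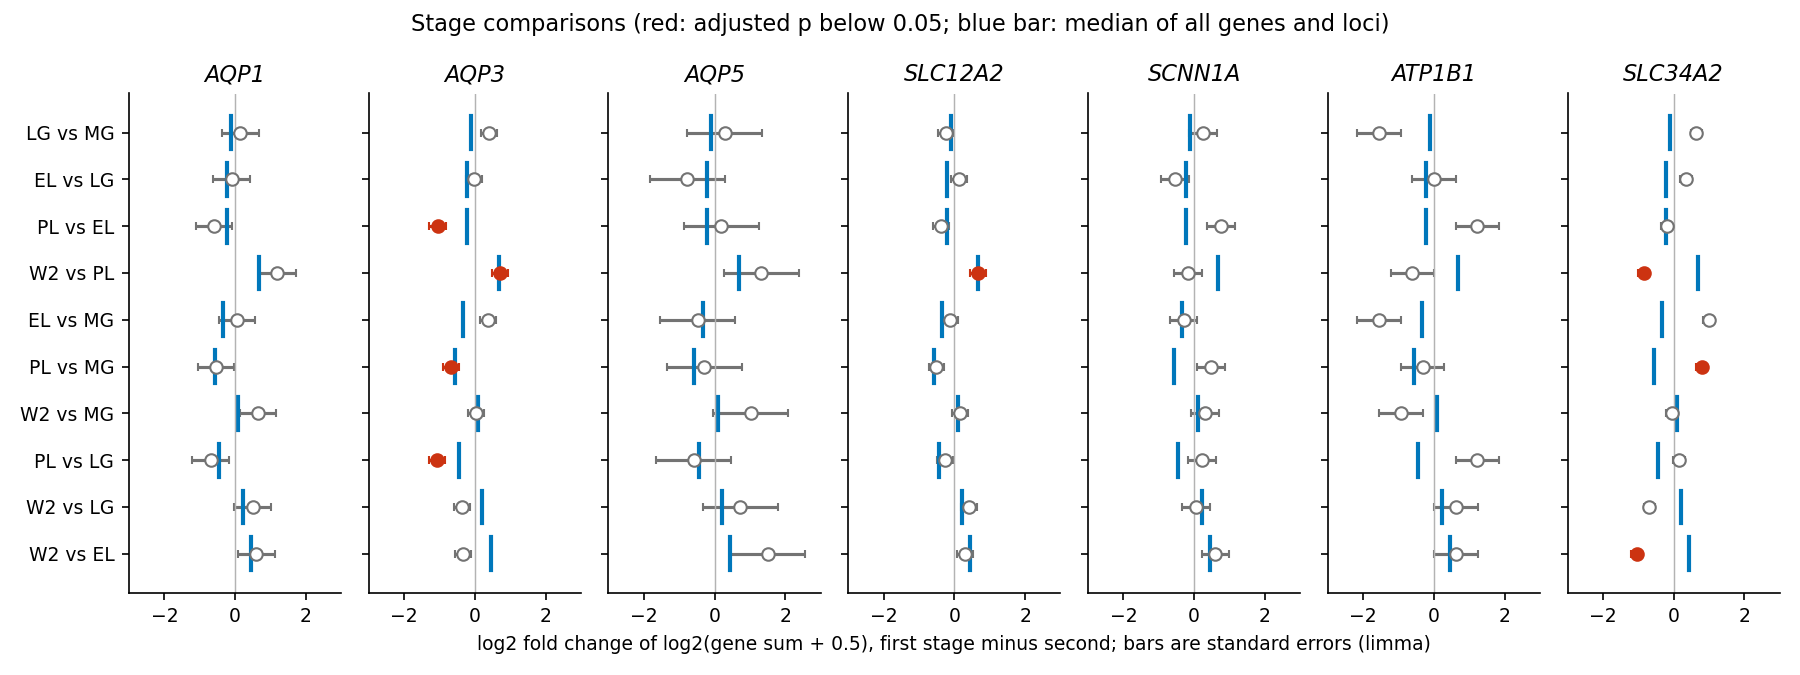
Log2 fold change with its standard error (limma) of the 7 genes in the 10 stage comparisons, with red filled points for an adjusted p below 0.05 and a blue bar for the median of all genes and loci. The red AQP3 and SLC12A2 points of W2 vs PL lie on the blue bar, and the SLC34A2 points of PL vs MG, W2 vs EL and W2 vs PL lie on the opposite side of zero from it.

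The scaling changed the split of calls over all genes. In W2 vs PL the share of calls lower in W2 was 7.54% as deposited and 42.0% after median ratio scaling. In PL vs MG the share lower in PL went from 91.2% to 53.5%, in PL vs LG from 89.0% to 58.1%, in PL vs EL from 83.2% to 50.1%, and in W2 vs EL the share lower in W2 from 31.9% to 63.6%. Among the members, median ratio scaling left 3 calls, all of SLC34A2.

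**Figure D4:**
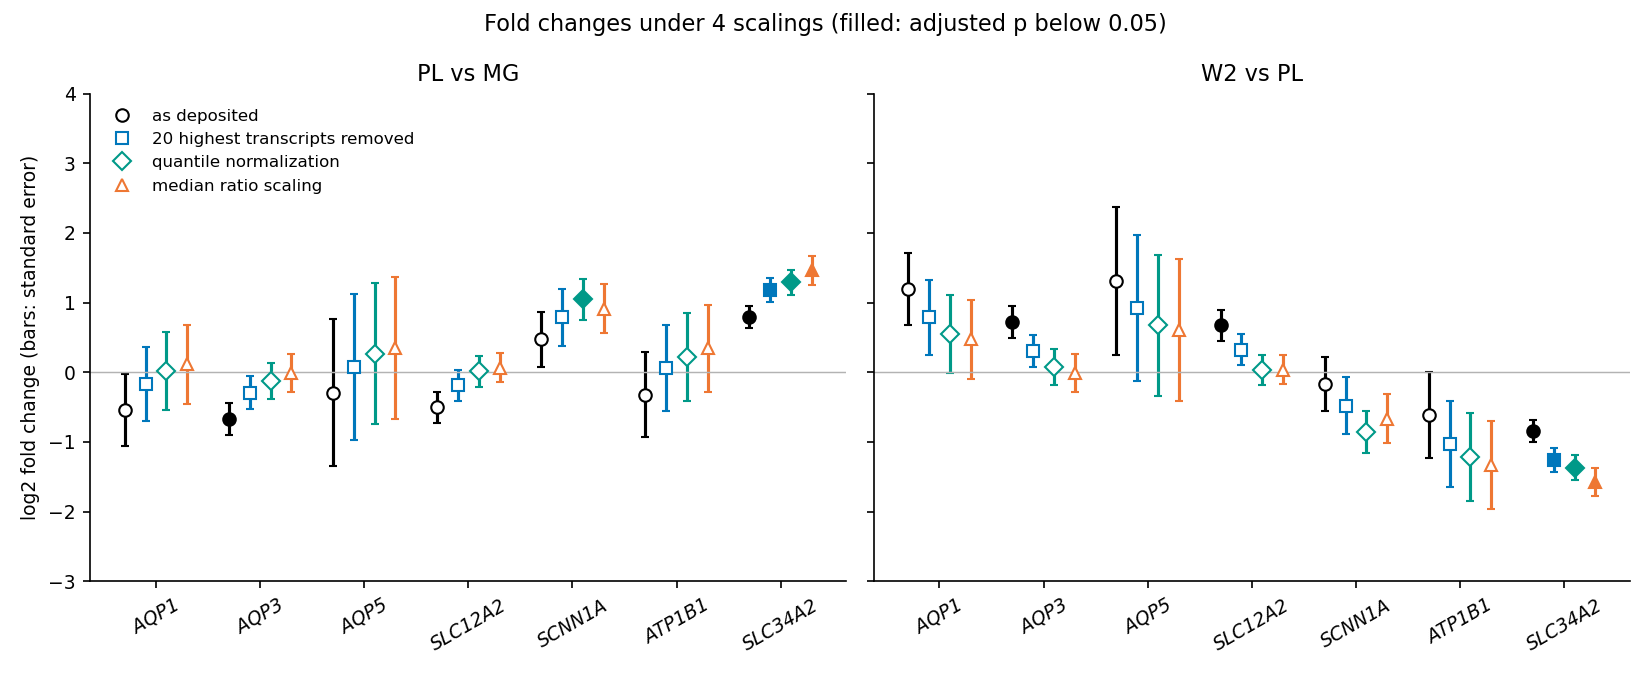
Log2 fold change with its standard error of the 7 genes in PL vs MG and W2 vs PL under 4 scalings of the values, with filled symbols for an adjusted p below 0.05. SLC34A2 was called under all 4 and moved further from 0, to 1.46 and −1.58 with median ratio scaling, while in W2 vs PL AQP3 and SLC12A2 lay between −0.01 and 0.08 with quantile normalization and median ratio scaling.

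Of 100 other genes of ion and water transport listed by role, 66 were measured and 18 were called in at least 1 comparison. In W2 vs PL 16 of the 66 (24.2%) were called, 11 higher and 5 lower, against a background of 32.8% (30.4% higher and 2.48% lower). In PL vs MG 6 were called higher and 9 lower, 22.7% of the 66 against 25.2% (2.23% higher and 23% lower). These shares by direction are also the background of the counts as deposited in the lists that follow. After median ratio scaling the counts were 4 higher and 12 lower in W2 vs PL, and 11 higher and 2 lower in PL vs MG. Under that scaling 7.67% of all genes and loci were called higher and 5.56% lower in W2 vs PL, and 5.11% higher and 5.87% lower in PL vs MG, and these shares are the background of every count after median ratio scaling in the lists that follow. Of the genes named by the lowest adjusted p in their list, 9 kept their call with the same sign after median ratio scaling. The median log2 fold change in W2 vs PL was 0.60 for the 8 sodium pump genes, 0.10 for the 8 genes of the sodium channel and its regulators, 0.65 for 10 cotransport genes, 0.35 for 19 chloride and bicarbonate genes and −0.02 for 8 potassium channel genes, beside 0.68 for all genes.

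Of the other aquaporins only AQP7 and AQP11 were measured. AQP11, an aquaporin of intracellular membranes, was called higher in W2 (4.18 ± 0.0438 units) than in PL (1.31 ± 0.422), with a log2 fold change of 1.39 (adjusted p = 0.00143) that was 0.81 after median ratio scaling (adjusted p = 0.0203). Of the 8 genes of the sodium pump list, 3 were called higher and 0 lower in W2 than in PL, but 1 higher and 2 lower after median ratio scaling. FXYD6, a small regulator of the pump, went from 20.1 ± 8.29 to 74.1 ± 6.27 units (1.94, adjusted p = 0.00111), a change of 1.22 after median ratio scaling (adjusted p = 0.00487). FXYD5, another regulator, was at 0 to 2.21 units in PL, being listed at 0 in 1 sample, and at 2.59 to 7.32 in MG (−1.96, adjusted p = 0.0268). That call was lost after median ratio scaling (adjusted p = 0.164), and without MG sample 3 or 6 or PL sample 6 (−1.25 without the last, adjusted p = 0.0721). FXYD2, a family member named here after its values were seen, went the other way. It was called higher in PL than in MG (2.76, adjusted p = 0.0389; 3.30 after median ratio scaling, adjusted p = 0.0216). From PL to W2 it was at −2.07 (adjusted p = 0.0919), and after median ratio scaling at −2.70 and called (adjusted p = 0.0469).

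Of the 8 genes of the sodium channel list, 2 were called higher and 1 lower in W2 than in PL, against 1 and 2 after median ratio scaling. PRSS8, encoding prostasin, a membrane protease that activates the channel, was at 20.8 ± 7.35 units in MG and 59.7 ± 14.2 in PL (1.54, adjusted p = 0.00565), and stayed called after median ratio scaling (adjusted p = 0.000777). HSD11B2, the enzyme that inactivates cortisol in tissues that answer to aldosterone, was at 0.936 ± 1.10 units in PL and 4.73 ± 1.06 in W2 (2.11, adjusted p = 0.00778; 1.61 after median ratio scaling, adjusted p = 0.0438). NEDD4L, the ubiquitin ligase that takes the channel from the membrane, was at 3.68 ± 2.08 in PL and 8.38 ± 1.58 in W2 (1.24, adjusted p = 0.0206), and was uncalled after median ratio scaling (0.60, adjusted p = 0.224) and without W2 sample 2 or 3 (adjusted p = 0.0588 and 0.0674).

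Of the 10 cotransport genes, 1 was called in W2 vs PL. That was SLC12A8, a distant relative of SLC12A2, at 3.59 ± 1.06 units in PL and 1.18 ± 0.689 in W2 (−1.35, adjusted p = 0.0114). Of the 19 chloride and bicarbonate genes, 2 rose and 2 fell from PL to W2, against 1 and 2 after median ratio scaling. CLIC1, an intracellular chloride channel protein, was at 74.7 ± 29.6 units in PL and 238 ± 21.0 in W2 (1.75, adjusted p = 0.000607), a change of 1.02 after median ratio scaling (adjusted p = 0.000800), while its relative CLIC5 went from 3.99 ± 1.30 to 0.672 ± 0.458 units (−1.96, adjusted p = 0.0166), a call lost without PL sample 2 or W2 sample 2 or 6 (adjusted p from 0.0523 to 0.0591). SLC26A11, an anion transporter, was at 7.50 ± 3.14 in PL and 14.8 ± 1.33 in W2 (1.01, adjusted p = 0.0181), and was uncalled after median ratio scaling (0.32, adjusted p = 0.336) and without W2 sample 2 (adjusted p = 0.0535).

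Of the 4 other phosphate genes 1 was called in PL vs MG and W2 vs PL, in the direction opposite to SLC34A2, and it lost both calls after median ratio scaling. It was SLC20A1, a widely expressed sodium phosphate cotransporter, at 13.2 to 19.1 units in MG and at 0 to 7.44 in PL, being listed at 0 in 1 PL sample (−2.57, adjusted p = 0.0333; −2.02 after median ratio scaling, adjusted p = 0.187). Without PL sample 6 this was −1.33 (adjusted p = 0.0391), and the call was lost without any 1 of the 3 MG samples (adjusted p from 0.0602 to 0.101). In W2 it was at 11.6 to 18.7 units (2.40 against PL, adjusted p = 0.0359), and that call was lost without PL sample 6 (1.16, adjusted p = 0.0546) or any 1 of the 3 W2 samples (adjusted p from 0.0686 to 0.104). XPR1, a phosphate exporter named here after its values were seen, was not called with the values as deposited (0.62 in PL vs MG, adjusted p = 0.251, and −0.45 in W2 vs PL, adjusted p = 0.383) but was called after median ratio scaling (1.17, adjusted p = 0.0249, and −1.05, adjusted p = 0.0359). SLC34A3, a family member best known from kidney, stayed between 0.340 and 1.54 units in all samples. SLC9A3R1, a scaffold of apical membrane transporters, was called higher in W2 (118 ± 2.75 units) than in PL (85.3 ± 14.5), at 0.47 (adjusted p = 0.0385), but was lower, at −0.26 (adjusted p = 0.347), after median ratio scaling and at −0.07 after quantile normalization. That call was also lost without PL sample 2 or 6 or any 1 of the W2 samples (adjusted p from 0.0585 to 0.108).

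Of the 8 potassium channel genes, 1 rose and 1 fell from PL to W2, against 0 and 2 after median ratio scaling. KCNJ15, an inward rectifier, fell from 1.25 ± 0.324 to 0.199 ± 0.0381 units (−1.31, adjusted p = 0.00174) and KCNE3, an accessory subunit of epithelial channels, rose from 1.28 ± 0.216 to 3.67 ± 1.09 units (1.20, adjusted p = 0.0227), a call lost after median ratio scaling (0.62, adjusted p = 0.266) and without PL sample 2 or W2 sample 2 or 3 (adjusted p from 0.0549 to 0.0856). KCNK1, a channel of the leak type, was at 4.96 ± 0.415 units in EL and 12.0 ± 1.26 in PL (1.19, adjusted p = 0.00344).

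**Figure D5:**
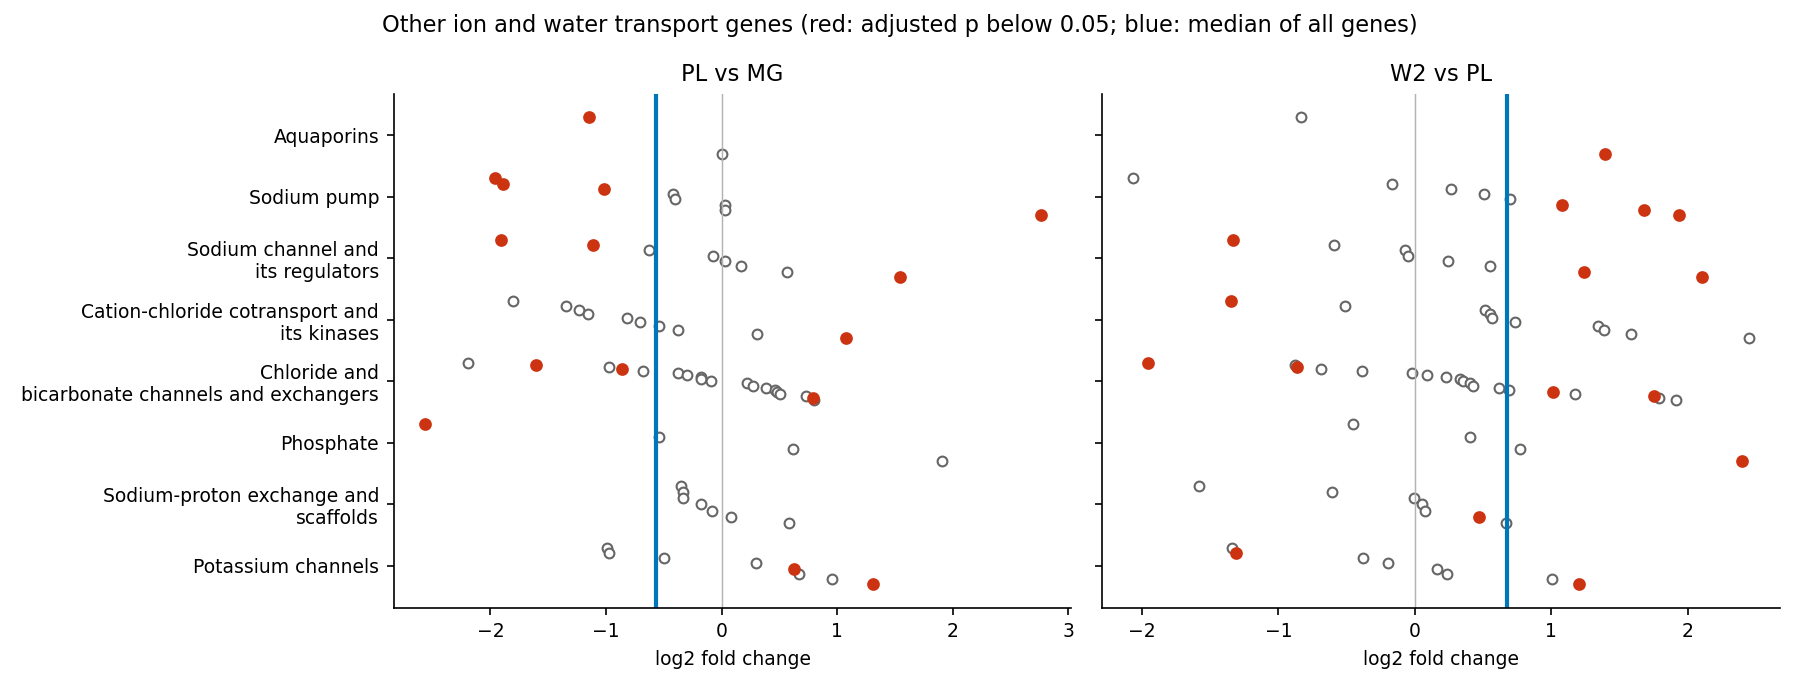
Log2 fold change of the 66 other transport genes in PL vs MG and W2 vs PL, 1 point a gene, grouped by list, with red points for an adjusted p below 0.05 and a blue line for the median of all genes (−0.57 and 0.68). In W2 vs PL 11 of the points are red on the higher side and 5 on the lower side, where 30.4% of all genes and loci were called higher and 2.48% lower.

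Across the 15 counted samples, the members varied apart from each other. Among the 21 pairs of members Pearson's r of log2 levels was highest for AQP1 and AQP3, at 0.64, and lowest for SLC12A2 and SLC34A2, at −0.57. Of 5742 genes with a mean of at least 10 units, the most like SLC34A2 were FAM46A (r = 0.88) and XDH, a protein of the milk fat globule (r = 0.84). The most like AQP3 were ERGIC1 (r = 0.86) and SREBF1, a transcription factor of lipid synthesis (r = 0.85). For AQP1 they were IFRD1 (r = 0.89) and ABHD14B (r = 0.83), and for AQP5 LOC100623726 (r = 0.92) and PLS3 (r = 0.91). For SLC12A2 they were UBE3A (r = 0.89) and CDK7 (r = 0.88), for SCNN1A TLR4 (r = 0.90) and UNC119B (r = 0.90), and for ATP1B1 PI16 (r = 0.73) and TMED5 (r = 0.65). These are descriptions over samples that share their stages and the composition of each library, picked as the highest of all genes compared.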

How the data were processed

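The authors trimmed the reads with Trimmomatic, used HISAT2 to align them to Sscrofa11.1, and used StringTie for the assembly and quantification of transcripts. The deposited values are named FPKM by the authors but add up to the total of TPM values in each sample, and were treated as TPM. The authors also name RUVs for unwanted variation, and the sources used here do not state whether the table includes it. The library kit does not mark strand. Assembled transcripts carry no coordinates in the table, so any at a member gene could not be added to its sum. Symbols and coordinates came from the RefSeq annotation of the same build. Sequences were not used here.

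Reference transcripts were summed per gene and analysed as log2(sum + 0.5). One limma fit (version 3.58.1, R 4.3.3) held all 5 stages, with a variance trend, and gave the 10 comparisons. Adjustment was by Benjamini and Hochberg, across every gene and locus of a comparison or every one of the 61773 transcripts. Fold changes are on that scale and understate changes of low genes. Tables were made with Python 3.11.15, numpy 2.4.6 and pandas 2.3.3. The fit was also run on simulated data, with independent normal noise around a single mean per gene and changes planted in PL. Those data held no shift of all genes and no sample apart from the rest. The run therefore cannot show how calls respond to either. Alternatives were other scalings, pseudocounts, filters, sample sets and fits. An exact permutation test of 3 samples against 3 cannot go below 0.10 and was not used. The labels name no sequencing batch. Since by the authors' account each sow gave 1 library and sows of different stages share a number only, the numbers were not taken as pairs. Fold changes were printed for each called pair of member and comparison, otherwise for the comparison with the lowest adjusted p. For each list up to 3 genes with the lowest adjusted p were named, and for each member the 2 genes most like it. Some genes of the lists are not reported here by name. Other values of members and the partner subunits were added after values were seen. The members and lists were chosen with earlier results of these data known.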

Additional observations from a re-analysis of the deposited data

How the results depend on the processing

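The number of calls among the 70 pairs of member gene and comparison was 8 as reported, 5 with quantile normalization, 3 with median ratio scaling, 4 with the 20 highest transcripts removed, 2 with the compared stages fitted alone, 3 with the highest transcript in place of the sum, 16 with the near-identical samples counted once, 35 with all 6 samples and 0 at the thresholds of the study. Of all genes and loci over the same comparisons, 7.81% were called as reported, and 4.11%, 3.88%, 4.65%, 2.14%, 4.90%, 19.8% and 37.2% under these alternatives up to all 6 samples, in that order. With all 6 samples the share was 63.3% in W2 vs PL. Leaving out each counted sample in turn gave 4 to 10, against 6.21% to 8.69% of all genes and loci. The number was lowest, at 4, without PL sample 6 (background 8.5%) or W2 sample 2 (6.88%), and 5 without EL sample 6 (6.9%) or W2 sample 3 (6.42%). Among the 100 pairs of member transcript and comparison the number of calls was 1 as reported. It was 5 with a mean of at least 10 units required and 2 with median ratio scaling. With the near-identical samples counted once it was 12, and with all 6 samples 38. In that order 1.46%, 8.80%, 0.802%, 7.86% and 28.6% of all transcripts were called. The number was 0 with the 20 highest removed (0.899% of all transcripts called), with the compared stages alone (0.165%) and without the variance trend (1.02%). At the thresholds of the study it was also 0. With each sample left out it was 0 to 2, against 1.18% to 1.91% of all transcripts. An unadjusted p below 0.05 in limma was found in 13 of the 100, and the share over all transcripts is not given here. The replicate number as a block (replicate block) gave 4 gene calls and 0 transcript calls, with 4.5% and 0.475% called over all. Same-numbered samples of different stages had correlated deviations from −0.14 to 0.17, and 2 of 15 samples correlated best with their own number. Of 932 pairs of a printed fold change and an alternative, 781 kept direction and side of the threshold, 131 lost the call, 17 gained one and 3 turned. Those 3 were AQP3 in W2 vs PL with median ratio scaling (−0.0080) and SLC9A3R1 in W2 vs PL with quantile normalization (−0.071) and median ratio scaling (−0.256). The causes were not tested. SLC12A2 and SCNN1A gave no value with at least 10 units required. With 3 counted samples a stage and no read counts, the spread between samples was the only measure of error.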
